A study of Mus musculus with 12 samples.

Results

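The 4 genes Tjp1, Podxl, Sdc4 and Tns1 encode proteins of cell junctions, the cell surface and cell adhesion, and their RNA was read on arrays of KSL cells from the bone marrow of irradiated and non-irradiated mice. The members were selected on measured values, since every row naming one of these 4 symbols was taken from a table in which the authors list what changed. That gave 7 probe sets, out of 451 of the table that are also among the 22626 on each array: 1 of Tjp1 and 2 each of Podxl, Sdc4 and Tns1. The table holds probe sets with at least a 2-fold change and an unadjusted p under 0.05 between the irradiated and control arrays. The difference between these groups therefore chose the members, and it is given below as a description without a test. The smallest fold inside the table was 2.00 and the largest fold outside it at an unadjusted p under 0.05 was 1.999, and the Tns1 probe sets, at 2.10-fold, lay nearest to this limit among the 7. Other probe sets of these genes carry no name here and were not analysed.

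The control group is 6 arrays of C57Bl/6 mice that received 0 cGy, and the irradiated group is 6 arrays of C57Bl/6 mice given 550 cGy from a cesium irradiator. Mice were raised to 10 weeks, and cells were taken at day 14 after irradiation according to the series' design text. KSL cells, sorted for Kit and Sca-1 and against lineage markers, include blood stem cells and their earliest progeny. The labels do not say whether the arrays came from separate mice or from pooled animals, so the spread between arrays may be technical. Kit and Ly6a, the genes of the sorting markers, carry no name in the table used here, so the labelled cell type was not checked against them. Array medians lay between 6.94 and 7.01 (log2), no array pair held identical values, and precision is limited by having 12 arrays. In earlier results of these data replicates 1 to 3 stood apart from replicates 4 to 6 in both groups, although the labels name no batch, so values within each of these sets stand beside the pooled ones.

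Tjp1 encodes ZO-1, a scaffold with PDZ domains that sits beneath the membrane at tight junctions and links junction proteins to actin. Podxl encodes podocalyxin, a sialomucin related to CD34 whose charged, heavily glycosylated outer part is known for opposing adhesion between cells and which is found on early blood progenitors and vascular endothelium. Sdc4 encodes syndecan-4, a heparan sulfate proteoglycan that spans the membrane and acts with integrins at focal adhesions. Tns1 encodes tensin 1, which binds the tails of beta integrins and actin filaments at focal and fibrillar adhesions. Hematopoietic stem cells depend on adhesion to their niche for retention and homing.

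Promoter windows in RefSeq (GRCm38.p6) matched 3 of the 4 genes, with Podxl the exception. They are shown because they lie before an annotated start of a gene that rose and of 2 genes that fell in the same cells. Each line holds the 250 bases before the annotated start, read 5′ to 3′, and capitals mark matches on either strand to any of the motifs searched, some of which overlap.
Tjp1, chr7:65371245-65371494, minus strand: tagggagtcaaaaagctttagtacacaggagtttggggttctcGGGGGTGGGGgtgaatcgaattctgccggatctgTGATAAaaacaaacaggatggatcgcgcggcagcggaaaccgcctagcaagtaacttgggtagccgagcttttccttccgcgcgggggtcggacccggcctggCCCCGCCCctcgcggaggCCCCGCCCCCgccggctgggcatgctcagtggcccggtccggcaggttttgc
Sdc4, chr2:164443189-164443438, minus strand: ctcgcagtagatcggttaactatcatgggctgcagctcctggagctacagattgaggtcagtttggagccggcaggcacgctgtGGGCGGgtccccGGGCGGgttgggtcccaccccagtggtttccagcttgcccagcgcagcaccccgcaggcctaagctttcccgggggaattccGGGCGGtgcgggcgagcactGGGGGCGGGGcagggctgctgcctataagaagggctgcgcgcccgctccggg
Tns1, chr1:74124549-74124798, minus strand: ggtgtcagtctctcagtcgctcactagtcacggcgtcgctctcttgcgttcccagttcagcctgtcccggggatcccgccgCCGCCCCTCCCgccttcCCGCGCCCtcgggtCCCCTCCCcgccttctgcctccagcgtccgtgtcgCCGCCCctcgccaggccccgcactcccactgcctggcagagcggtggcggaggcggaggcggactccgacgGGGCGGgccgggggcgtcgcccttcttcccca
The motifs, searched on both strands, were AGATAA or else TGATAA for GATA factors, CCNCNCCC for KLF factors, GGGCGG for Sp factors, TGANTCA for AP-1, TGACGTCA for the cyclic AMP response element, GGAAGT for ETS factors, and CACGTG for the E-box. Matches to CCNCNCCC, which can overlap those to GGGCGG, numbered 5 in the Tjp1, 2 in the Sdc4 and 3 in the Tns1 window, and 45.9% of the 32851 promoter windows of the same length hold at least 1. Matches to GGGCGG numbered 2, 4 and 3 in that order, with 32.7% of all windows holding one. TGATAA occurred once, in the Tjp1 window, and in 7.94% of all windows. AGATAA and the motifs of AP-1, the cyclic AMP response element, ETS factors and the E-box occurred in none of the 3 windows. They occurred in 9.99%, 6.75%, 1.55%, 19.7% and 6.02% of all windows in that order. The GC content was 63.2% in the Tjp1, 68.0% in the Sdc4 and 74.4% in the Tns1 window. These matches describe the letters only. The Tjp1 window lies inside the annotated span of the gene (chr7:65296165-65527850) and belongs to 1 start site of a gene with many annotated transcripts.

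After irradiation the KSL cells had higher levels of Tjp1 (5.12-fold) and Podxl (3.75-fold and 4.98-fold in its probe sets) and lower levels of Sdc4 (4.01-fold and 3.38-fold) and Tns1 (2.10-fold in each). All 7 probe sets passed limma with Benjamini-Hochberg adjustment at 0.05, 3 higher and 4 lower, against 11.3% of all probe sets (5.87% higher and 5.47% lower). After subtraction of array medians, 1765 probe sets were higher and 1081 lower, against 1329 and 1238 in the values as deposited, and the direction of the 4 genes was the same. The groups did not overlap in 6 of the 7, against 5.80% of all probe sets (3.00% with irradiated arrays higher and 2.80% with them lower). Because the same contrast chose the members, nothing is read from these counts. In bulk samples such as these, a change in the share of cells that carry a transcript and a change of RNA per cell cannot be told apart.

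**Figure D1:**
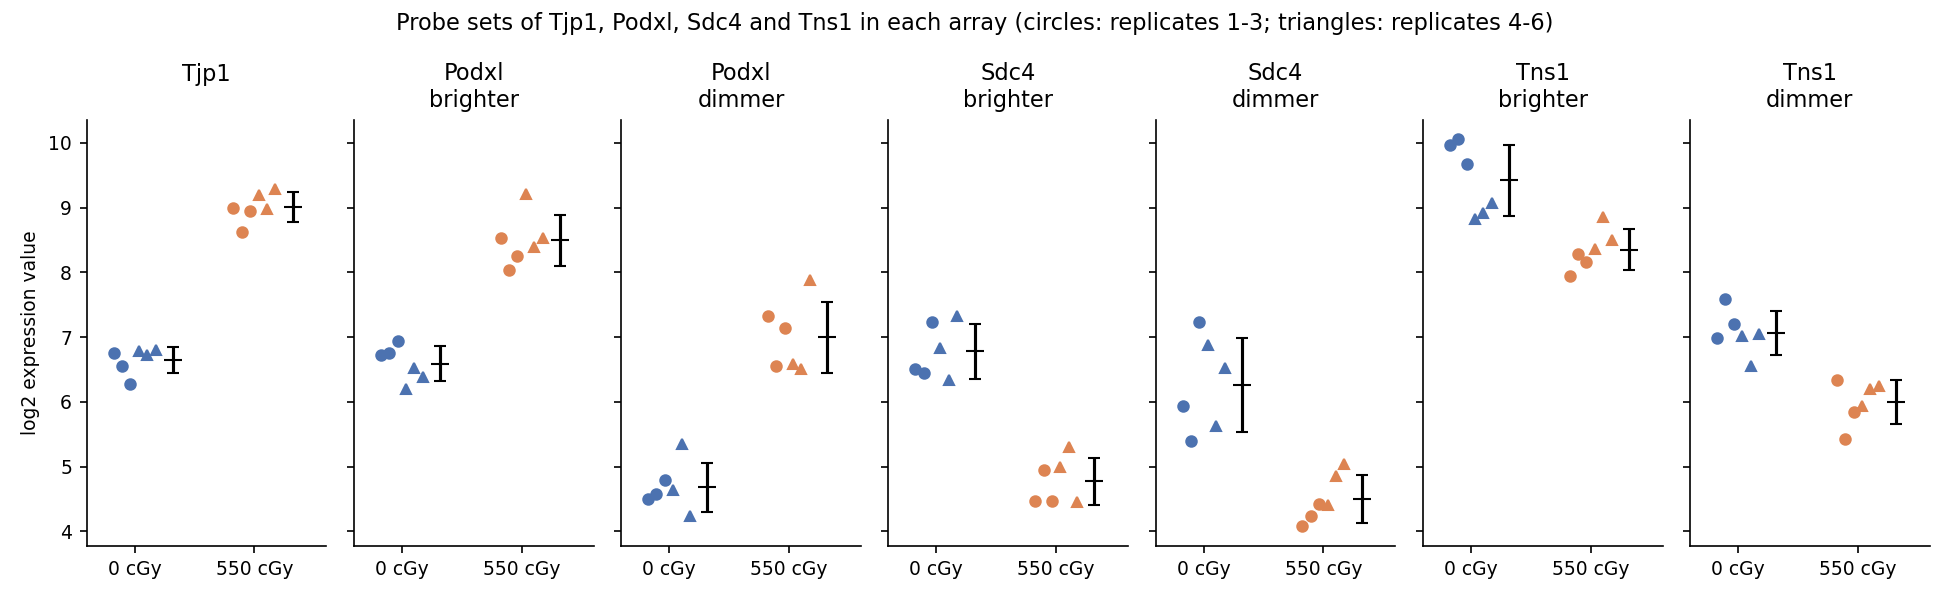
Log2 expression value of each of the 7 probe sets (vertical axis) in the control arrays (0 cGy, blue) and irradiated arrays (550 cGy, orange), with circles for replicates 1 to 3, triangles for replicates 4 to 6, and black bars for the mean ± SD over 6 arrays. Tjp1 shows tight, widely separated groups, from 6.28 to 6.80 and from 8.62 to 9.29. The brighter Tns1 probe set is the one in which the groups overlap, and its control arrays fall into a higher and a lower set. Levels of different probe sets are not comparable with each other.

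Tjp1 was read by 1 named probe set, 1417749_a_at. Its log2 values in control replicates 1 to 6 were 6.75, 6.55, 6.28, 6.79, 6.72 and 6.80. In irradiated replicates 1 to 6 they were 8.99, 8.62, 8.94, 9.20, 8.98 and 9.29. The highest control and the lowest irradiated array lay 1.83 apart, more than the whole range of either group (0.51 and 0.67). The mean went from 6.65 ± 0.20 to 9.004 ± 0.232 (log2, SD, n = 6 per group), a difference of 2.36 (limma SE 0.12), or 10.9 times the pooled SD within groups. In replicates 1 to 3 the difference was 2.32 and in replicates 4 to 6 it was 2.39, so both sets gave nearly the same value. Among all probe sets this was the 9th largest rise, and 43.9% of probe sets had a lower SD within groups than Tjp1. In the authors' deposited table its F statistic of 353 was the highest of all rows.

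Podxl was read by 2 named probe sets, 1448688_at and the dimmer 1417396_at. The brighter one gave log2 values of 6.72, 6.76, 6.94, 6.20, 6.52 and 6.39 in control replicates 1 to 6. It gave 8.53, 8.04, 8.25, 9.21, 8.40 and 8.53 in irradiated replicates 1 to 6. Irradiated replicate 4 was the highest, and the groups lay 1.10 apart at their nearest. On average the level went from 6.59 ± 0.27 to 8.49 ± 0.40 (SD, n = 6 per group), a difference of 1.91 (SE 0.18).

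The dimmer Podxl probe set gave 4.50, 4.58, 4.79, 4.64, 5.35 and 4.23 in control replicates 1 to 6. It gave 7.32, 6.55, 7.14, 6.59, 6.51 and 7.88 in irradiated replicates 1 to 6. Here irradiated replicate 6 was the highest and replicate 4 among the lower 3, and the nearest arrays of the groups lay 1.16 apart. Its mean rose from 4.68 ± 0.38 to 6.999 ± 0.551, a difference of 2.32 (SE 0.24). This probe set was among the dimmest 40% by mean, and how near its control level lies to background was not measured. The difference of the brighter probe set minus that of the dimmer one was -0.41 (SE 0.33 from the per-array offsets of both probe sets). In the brighter probe set the difference was 1.47 for replicates 1 to 3 and 2.34 for replicates 4 to 6, whereas the dimmer one gave 2.38 and 2.25. The control arrays 1 to 3 were higher than 4 to 6 by 0.44 in the brighter probe set, and the irradiated arrays 1 to 3 lower by as much (-0.44).

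Sdc4 was lower after irradiation in both of its named probe sets, 1417654_at and the dimmer 1448793_a_at. Both were among the dimmest 40% of all probe sets by mean, and how near the irradiated levels lie to background was not measured. The brighter one gave log2 values of 6.51, 6.44, 7.23, 6.84, 6.34 and 7.33 in control replicates 1 to 6. It gave 4.46, 4.95, 4.47, 5.00, 5.31 and 4.46 in irradiated replicates 1 to 6. Every irradiated array lay at least 1.04 below every control array. The mean level fell from 6.78 ± 0.42 to 4.78 ± 0.36 (SD, n = 6 per group), a difference of -2.005 (SE 0.206), which came to -2.10 for replicates 1 to 3 and -1.91 for replicates 4 to 6.

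The dimmer Sdc4 probe set gave 5.93, 5.40, 7.23, 6.88, 5.62 and 6.52 in control replicates 1 to 6. It gave 4.08, 4.23, 4.43, 4.40, 4.86 and 5.04 in irradiated replicates 1 to 6. The control arrays spread over 1.83, with replicate 3 highest and replicate 2 lowest, and the nearest arrays of the groups lay 0.36 apart. On average it fell from 6.27 ± 0.73 to 4.51 ± 0.37, a difference of -1.76 (SE 0.30). It was -1.94 in replicates 1 to 3, where the probe set was not called in that smaller fit, and -1.58 in replicates 4 to 6. The SD of this probe set exceeded that of 96.3% of all probe sets.

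Tns1 had the smallest differences of the 4 genes, and that of its brighter probe set varied most with the replicate numbers among the 7. The brighter probe set, 1449405_at, gave log2 values of 9.97, 10.06, 9.67, 8.82, 8.92 and 9.08 in control replicates 1 to 6. It gave 7.94, 8.29, 8.16, 8.37, 8.86 and 8.50 in irradiated replicates 1 to 6. Irradiated replicate 5 lay above control replicate 4, so the groups overlapped by 1 pair of arrays. Averaged over arrays it went from 9.42 ± 0.55 to 8.35 ± 0.31 (SD, n = 6 per group), a difference of -1.07 (SE 0.23). The difference was -1.77 in replicates 1 to 3 (3.41-fold lower) and -0.37 in replicates 4 to 6 (1.29-fold lower), where the probe set was not called. The control arrays 1 to 3 averaged 9.90 and the control arrays 4 to 6 averaged 8.94, while the irradiated means were 8.13 and 8.57. Whether the sets differ in this change was not tested.

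The dimmer Tns1 probe set, 1419283_s_at, gave 6.99, 7.59, 7.20, 7.02, 6.55 and 7.04 in control replicates 1 to 6. It gave 6.34, 5.43, 5.84, 5.94, 6.20 and 6.24 in irradiated replicates 1 to 6. The groups did not overlap here, with control replicate 5 and irradiated replicate 1 nearest to each other at 0.21 apart. On average this one fell from 7.07 ± 0.34 to 6.00 ± 0.34, a difference of -1.07 (SE 0.18) that matched the brighter probe set. It was -1.39 for replicates 1 to 3 and -0.75 for replicates 4 to 6, the same order as in the brighter probe set but with a smaller distance.

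**Figure D2:**
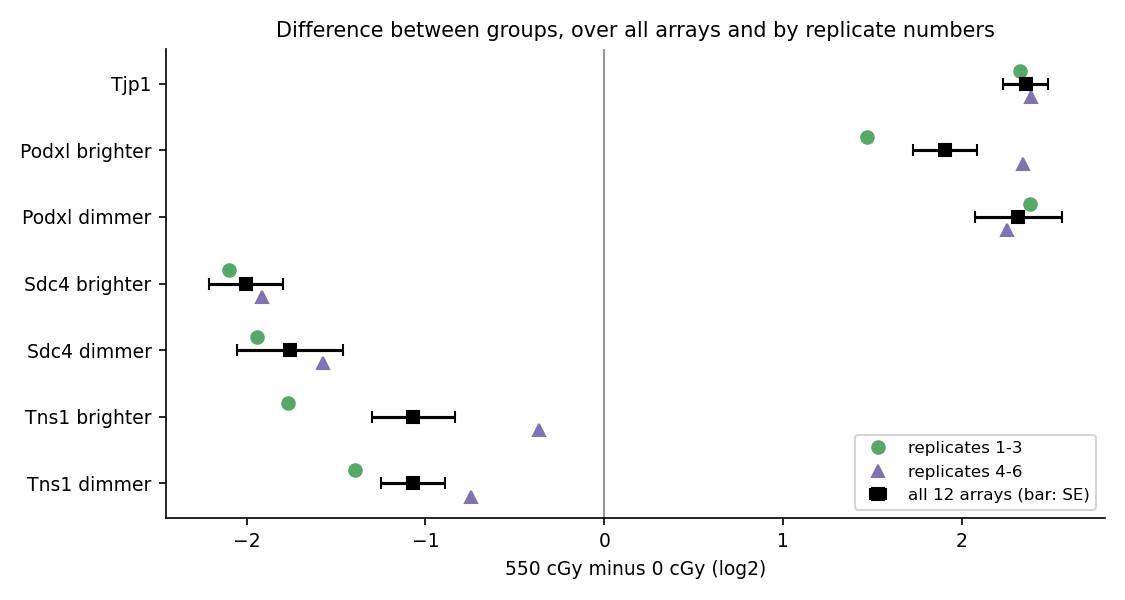
Difference between irradiated and control arrays (horizontal axis, log2) of each probe set over all 12 arrays (squares, bar ± SE), in replicates 1 to 3 (circles) and in replicates 4 to 6 (triangles). Tjp1 gave 2.32 and 2.39 in the sets, and the brighter Tns1 probe set gave -1.77 and -0.37. All 7 probe sets kept their direction in both sets.

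Within groups the correlations between probe sets of different members went both ways. Whether the genes vary together cannot be read from them, since even the probe sets of Podxl correlated at only 0.01. Pearson correlations of the deviations from the group means over 12 arrays, which share array and processing, ranged from -0.68 to 0.42 among the 18 pairs of probe sets of different genes, with a median of 0.02. The lowest was that of the dimmer Podxl with the brighter Sdc4 probe set. The highest, that of the brighter Podxl with the brighter Tns1 probe set, became -0.68 once the mean of each replicate set was removed, and the 18 values then ranged from -0.73 to 0.32 with a median of -0.08. Tjp1 with the brighter Podxl probe set gave 0.16 over all arrays, -0.82 among the 6 control arrays and 0.73 among the 6 irradiated arrays. Of the pairs of probe sets of 1 gene, those of Sdc4 correlated at 0.61, those of Tns1 at 0.46 and those of Podxl at 0.01. The Sdc4 value was 0.83 among the 6 control arrays and 0.15 among the 6 irradiated arrays. With replicate-set means removed, the Tns1 value became -0.10, that of Sdc4 0.56 and that of Podxl 0.08.

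Among 321 other genes of the authors' table, the 3 whose deviations over the 12 arrays were most like those of each member were named. For Tjp1 they were Chad, which encodes the matrix protein chondroadherin (r = 0.83), Socs2, a suppressor of cytokine signalling (r = 0.79), and Fam110c (r = 0.78). Chad and Fam110c were lower after irradiation (log2 difference -1.55 and -1.06) and Socs2 was higher (1.93), so for Tjp1 likeness within groups did not follow the direction between them. For the brighter Podxl probe set they were Cadps2, which acts in vesicle exocytosis (r = 0.79), Smim7 (r = 0.77) and Hdgfl3 (r = 0.75), and all 3 were lower after irradiation (log2 difference -1.16, -1.35 and -1.37). Genes called lower outnumbered those called higher in the table searched (180 against 113).

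For the brighter Sdc4 probe set the most similar genes were Fnbp1, a membrane-bending F-BAR protein (r = 0.73), Il1r1, the interleukin-1 receptor (r = 0.71), and Malat1, a nuclear long non-coding RNA (r = 0.65), with log2 differences of -1.06, -1.05 and -1.06. For the brighter Tns1 probe set they were Sik1, a salt-inducible kinase (r = 0.92), Ccrl2, an atypical chemokine receptor (r = 0.88), and Socs3, a suppressor of cytokine signalling (r = 0.86). These 3 had differences of -1.20, -1.29 and -1.11, and Ccrl2 did not pass limma. With the mean of each replicate set removed the Tns1 values became 0.40, 0.30 and 0.56. Those of Tjp1 became 0.66, 0.66 and 0.69, and those of Podxl 0.66, 0.54 and 0.52. For Sdc4 they became 0.78, 0.91 (Il1r1) and 0.65. Over all 22626 probe sets, 3 others were more like Tns1 than Sik1 was, and 85 others were more like Tjp1 than Chad was. For Podxl 38 others were more alike than Cadps2, and for Sdc4 54 others were more alike than Fnbp1.

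Of 205 other junction and adhesion genes listed, 10 were named in the authors' table, and all 10 passed limma, 3 higher and 7 lower. Only genes with a 2-fold change or more on these arrays are in the table, so listed genes that changed less have no name here and the calls are not independent evidence. The 325 genes named in the table included 113 called higher and 180 called lower, and the median log2 difference was -1.05 over the 10 listed genes and -1.06 over all 325. Over all probe sets the median was 0.01.

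Of 46 genes of tight, adherens and gap junctions, Tjp1 and Gja1 were in the table, and both rose. Gja1, which encodes a connexin of gap junctions, went from 6.78 ± 0.59 to 8.66 ± 0.47 (log2, SD, n = 6 per group), 3.70-fold higher, and was 2.31-fold to 3.70-fold higher across its 5 named probe sets. Its difference was 1.91 for replicates 1 to 3 and 1.86 for replicates 4 to 6. Of 16 sialomucin and ERM genes, Podxl rose and Emcn, a sialomucin of endothelium and stem cells, fell (8.26 ± 0.38 to 7.25 ± 0.21, 2.02-fold).

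Of 33 proteoglycan genes, 3 were in the table. Sdc4 fell, as did Sdc2, another syndecan, from 6.01 ± 0.40 to 4.95 ± 0.38 (2.08-fold), and Tgfbr3, which encodes the proteoglycan betaglycan, rose from 7.86 ± 0.20 to 9.004 ± 0.349 (2.21-fold). The Sdc2 difference was -1.61 for replicates 1 to 3 and -0.50 for replicates 4 to 6, where it was not called. Of 38 focal adhesion scaffold genes Tns1 was the one in the table. Of 40 integrin, integrin ligand and tetraspanin genes, Itgb5, the integrin beta 5 chain, fell from 7.79 ± 0.53 to 6.41 ± 0.45 (2.60-fold, or 2.03-fold to 3.47-fold across its 4 probe sets), and Itga9, the integrin alpha 9 chain, fell from 5.97 ± 0.61 to 4.84 ± 0.26 (2.18-fold). Neither passed in replicates 4 to 6 alone, at differences of -1.25 and -1.04.

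Of 36 selectin, immunoglobulin-type and homing genes, 4 were in the table. Selp, which encodes P-selectin, rose 3.24-fold, with a difference of 1.75 in replicates 1 to 3 alone, where it was not called. Alcam, an adhesion molecule of the immunoglobulin family, fell from 8.11 ± 0.36 to 6.62 ± 0.31 (2.82-fold), Robo4, a guidance receptor of stem cells and endothelium, fell 3.27-fold, and Ceacam1, a carcinoembryonic-antigen-related adhesion molecule, fell from 6.93 ± 0.33 to 5.89 ± 0.39 (2.05-fold). Ceacam1 was not called in replicates 1 to 3 alone, at -0.83.

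**Figure D3:**
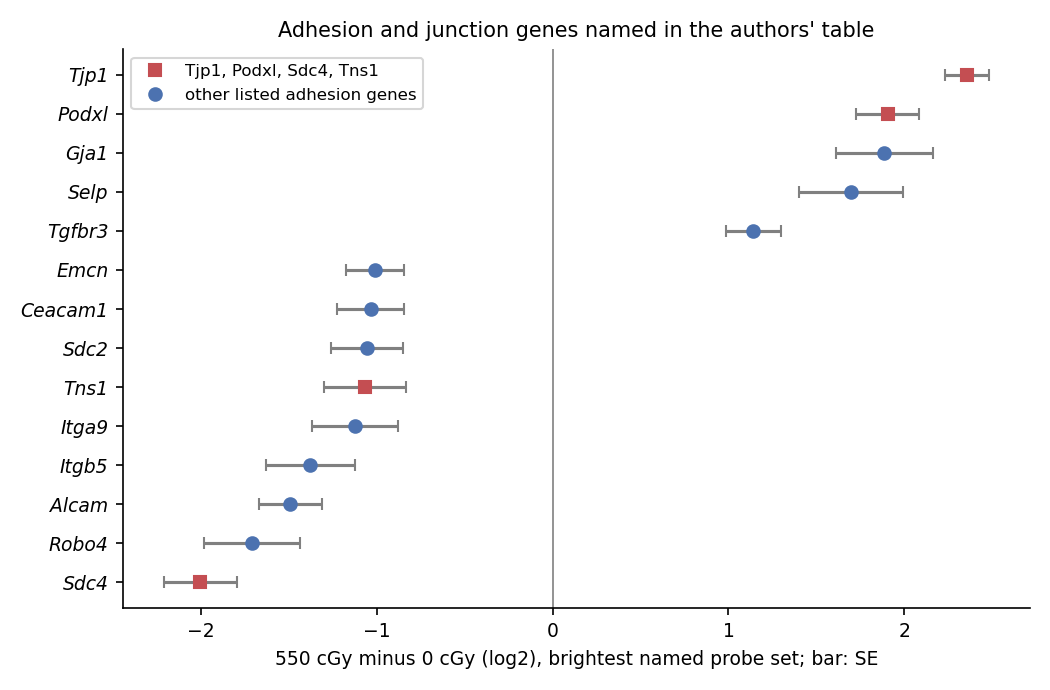
Log2 difference between irradiated and control arrays (horizontal axis, bar ± SE, 12 arrays) of each listed junction or adhesion gene in the authors' table, read from its brightest named probe set, with Tjp1, Podxl, Sdc4 and Tns1 as squares. Tjp1, at 2.36, and Sdc4, at -2.005, lie at the ends of the plot, and all genes lie beyond 1 or -1 because the table holds only such changes.

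Markers of other cells were read in the same comparison. Only those with a 2-fold change or more on these arrays have a name here. The calls and group levels of these genes were therefore shaped by that choice, and nothing is read from them. Of all 325 genes named in the table, 113 were called higher and 180 lower, against 5.87% and 5.47% of all probe sets. Of 19 erythroid genes 15 were in the table, 12 of them called higher, and their mean log2 value lay between 6.71 and 7.89 in control arrays and between 8.05 and 9.57 in irradiated arrays. Its deviations within groups correlated at 0.59 with those of Tjp1, at 0.41 with the dimmer and -0.04 with the brighter Podxl probe set, and at -0.03 and 0.22 with the Sdc4 probe sets (12 arrays). For the Tns1 probe sets the values were -0.40 and 0.16. Of 15 megakaryocyte genes 4 were in the table, 2 called higher and 2 lower, with means of 8.65 to 9.10 in control and 8.63 to 9.20 in irradiated arrays. Deviations of this mean correlated with those of the 7 probe sets at -0.20 (Tjp1) to 0.37 (dimmer Sdc4).

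Endothelium also expresses Podxl. Among genes of other lists that endothelium can express, Robo4 fell (3.27-fold), whereas Selp and Vwf rose (3.24-fold and 2.20-fold). These are examples and not every such gene in the table. Robo4 and Emcn are also genes of stem cells, and Selp and Vwf are also on the megakaryocyte list. None of them therefore marks endothelium alone in KSL cells. Of 22 genes of endothelium and stroma, Emcn and Pdgfrb were in the table, and both fell, with means of 7.76 to 8.94 in control and 6.95 to 7.48 in irradiated arrays. Deviations of this mean correlated at 0.60 with the brighter and 0.28 with the dimmer Tns1 probe set, at -0.46 with Tjp1, at 0.31 and -0.21 with the brighter and dimmer Podxl probe sets, and at -0.08 and -0.12 with those of Sdc4. Of 13 mast cell and basophil genes, Fcer1a and Il1rl1 were in the table and rose, with means of 5.01 to 6.40 and 6.22 to 7.16. Deviations of this mean correlated at -0.67 with the brighter and -0.26 with the dimmer Tns1 probe set, at -0.52 and 0.41 with the brighter and dimmer Podxl probe sets, at -0.23 and -0.26 with those of Sdc4, and at -0.04 with Tjp1. Log2 array values have no true zero, so no marker can be called absent. The correlations with the means of the marker lists, the erythroid one included, were not repeated with replicate-set means removed. Differences between the replicate sets may therefore enter them. The part of these cells in the differences of the 4 genes was not tested.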

How the data were processed

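Total RNA of sorted KSL cells was labelled with biotin and hybridised to 12 arrays. The authors deposited log2 expression values, 1 per probe set, and how they were background-corrected and normalized is not given in the sources used here. Partek is named, without version or role, in the submitters' processing notes. The authors also deposited a table of changed probe sets with a linear ratio, an unadjusted p-value and, as scores, a signed fold and the F statistic and sums of squares, per the file headers. For the 7 probe sets its log2 ratio differed from the recomputed difference by at most 6.92e-06. Current symbols came from RefSeq (GRCm38.p6) by gene ID, and of several named probe sets the one with the highest mean stood for the gene.

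All probe sets were fitted with limma 3.58.1 in R 4.3.3 (lmFit, eBayes, 1 coefficient for irradiation, no filter), with Benjamini-Hochberg adjustment over all 22626 and a threshold of 0.05. The fit was tested on simulated data. All 12 arrays were kept, since no 2 were alike (smallest SD of their difference 0.28). The members, lists, replicate sets and rules were chosen with earlier results of these data known. Genes were named as members, as the 3 genes most like each member's brightest probe set, or as list genes in the authors' table (at most 6 per list, in order of absolute difference), and of the marker lists most genes are given by their mean. Alternatives were quantile normalization, median subtraction, a filter on the dimmest 40%, another prior, array weights, a replicate block, replicate sets, group medians and leaving out each array. Figures were drawn with matplotlib 3.10.9.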

Additional observations from a re-analysis of the deposited data

How the results depend on the processing

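The 7 log2 differences kept their direction under each alternative that gave a value. The filter on the dimmest 40% dropped 3 probe sets, the dimmer Podxl and both of Sdc4, and kept 4. With array weights the brighter Tns1 probe set gave -0.76 and the dimmer -0.93. With each array left out in turn they ranged from 2.28 to 2.43 for Tjp1, from 1.76 to 2.00 and from 2.14 to 2.45 for the brighter and dimmer Podxl probe sets, from -2.11 to -1.90 and from -1.93 to -1.57 for those of Sdc4, and from -1.19 to -0.94 and from -1.17 to -0.96 for those of Tns1. Differences that moved by over 1 SD were those of the brighter Podxl probe set (1.47 in replicates 1 to 3 and 2.34 in replicates 4 to 6) and of the brighter Tns1 probe set (-1.77 and -0.37). The correlation of the Tns1 probe sets moved to -0.10 within replicate sets. The causes were not tested.

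The count of higher probe sets was 1329, and 2099 with the replicate set as a term, 539 in replicates 1 to 3 and 720 in replicates 4 to 6. Without 1 array it ranged from 740 to 1531, and for the irradiated group it was 740 without replicate 1, 830 without replicate 5 and 769 without replicate 6, and for the control group 837 without replicate 1. The count of lower ones was 1238, and 1833 with the replicate set as a term. It was 601 and 738 in the replicate sets and ranged from 773 (without irradiated replicate 1) to 1303 with 1 array left out. With the replicate number as a block, 1451 were higher and 1350 lower, and the differences of the members were the same by construction. Deviations of same-numbered control and irradiated arrays correlated at 0.01 to 0.29, above 0.1 in 5 of 6 pairs, and 2 of 6 control arrays correlated best with the irradiated array of their own number. The labels state no shared source for a number, and a block was to be used only if all 6 pairs exceeded 0.1, so some shared variation by number is possible. The other listed adhesion genes called lower went from 7 to 4 in replicates 4 to 6, and the marker genes called higher from 16 to 10 in replicates 1 to 3, where fewer arrays were fitted.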
